A study of Mus musculus with 8 samples.

Results

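Astrocytes carrying the S89G point mutation of DMP1 were set against neural stem cells (NSCs) that carry the same mutation. All Ensembl genes listed in both deposited count tables were compared between the 1 S89G-DMP1 astrocyte library and the 3 S89G-DMP1 NSC libraries, which are 4 of the 8 samples of the series. The S89G substitution is a knock-in that replaces the serine of DMP1 that bears its glycosaminoglycan chain by glycine, and all 4 libraries carry it on a C57BL/6 background. Mice were aged 10 weeks according to the labels. Astrocytes were grown from cortex in DMEM with 10% fetal bovine serum, and the study's methods describe passaging of these adherent cultures. NSCs were grown from the sub-ventricular zone as floating neurospheres in serum-free DMEM/F12 with N2 supplement. Cell type, brain region, serum, adherence and the counting pipeline therefore differ together between the groups and cannot be told apart. Whether the NSC triplicates came from separate mice or cultures is not stated, so the spread among them may be technical.

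Neurosphere cultures keep cells of the adult sub-ventricular zone in a dividing, multipotent state by mitogen signaling, and such cells share many genes with astrocytes, since adult NSCs are themselves glia of the astrocyte lineage. Astrocytes cover brain vessels with end feet that carry the water channel aquaporin 4 and that rest on a basement membrane of laminin, collagen IV, nidogen and perlecan. Serum in culture is known to turn on the actin cytoskeleton through the transcription factors SRF and YAP, and cortical cultures in serum can also hold microglia and mesenchymal cells of vessels and meninges.

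Over the 40432 shared genes, 13013980 reads were counted in the astrocyte library and 2385044, 2346911 and 2504266 in the NSC libraries, so the astrocyte library was 5.46 times as deep as the median NSC library. Levels are given as CPM, the reads of a gene scaled so that every library has the same total over the shared genes, for the astrocyte library against the mean ± SD of the NSC libraries (n = 3). At these depths 3 reads correspond to 0.231 CPM in the astrocyte library and 1.2 to 1.28 CPM in the NSC libraries, and these limits cover counting error only. The NSC libraries lay close together. Their chi-square per gene was 1.07, 1.19 and 1.36 for the 3 pairs, where counting noise alone gives a value near 1, and the median coefficient of variation was 8.06%. With 1 astrocyte library the comparison has no replicate check on that side and no p-value is given. A gene is called only when the astrocyte library differed at least 8-fold from every NSC library, with libraries of 3 or fewer reads set to 3 reads. The 43 subunits of the proteasome and RNA polymerase II, complexes that every cell uses, had a median log2 ratio of -0.63, with 0 called in either direction. Scaling by TMM or by DESeq2 size factors raised the median log2 ratio of all genes by 0.21 and 0.18, so ratios near 0 carry no direction.

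Of 12407 genes with at least 5 CPM in either group, 874 (7.04%) exceeded every S89G-DMP1 NSC library by 8-fold or more in S89G-DMP1 astrocytes, and 379 (3.05%) lay below every one by as much. These shares over all genes are the ones to set beside each count of called list members below. The higher genes took 12.9% of the astrocyte reads and 0.39% of the NSC reads, whereas the lower genes took 0.224% and 4.31%. The median log2 ratio of all genes was -0.09, 53.3% of them had a ratio below 0 and 56.2% lay within 2-fold. Among the higher genes, 200 had no read in any NSC library, and among the lower genes 34 had none in the astrocyte library. At most 3 reads were present in every NSC library for 485 higher genes, and in the astrocyte library for 79 lower genes. A gene this low in a group was counted only through the other group, so the filter set its direction. The genes called at either end were of different kinds. The 10 protein-coding genes with the largest ratios were Acta2, Ahnak, Col1a1, Bgn, Lyz2, Thbs2, Col8a1, Tagln, Cyp1b1 and Prelp, most of which encode contractile or matrix proteins. Acta2, the smooth muscle actin, had 35539 reads in the astrocyte library and 1, 1 and 2 reads in the NSC libraries, or 2731 against 0.548 ± 0.217 CPM. Bgn, the matrix proteoglycan biglycan, had 13831 reads and none in the NSC libraries, at least 854-fold higher.

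The 10 protein-coding genes with the smallest ratios were Grm5, Myt1, Elfn2, Rab26, Dlgap3, Pou3f1, Prr18, Lmo1, Nxph1 and Neto1, which include genes of synapses and of transcription in neural progenitors. Grm5, the metabotropic glutamate receptor 5, had no read in the astrocyte library and 897, 825 and 909 reads in the NSC libraries, at least 1577-fold lower in astrocytes. Myt1, a zinc finger factor of neural progenitors, also had no read and was at least 673-fold lower. The neurexin ligand Nxph1 was the other gene of the 10 without a read, at least 264-fold lower. Ranked by reads instead, the leading lower genes included Ptprz1, Olig1, Hmgcs1, Mmp15, Xist, Olig2, Txn1, Camk2b and Bcan. Camk2b, a calcium-dependent kinase of synapses, was 5.3 against 886 ± 33.6 CPM. The higher genes with the most reads were Fn1, Sparc, Acta2, Ctsd, Ahnak, Apoe, Hspg2, Col1a1, Timp2 and Igfbp5. These orders depend on transcript length as well as on level. Apoe, the main lipid carrier made by glia and macrophages, was 2085 against 131 ± 3.82 CPM. Whether counting used strand is not given in the sources used here, so genes whose exons overlap those of another gene are uncertain. Of the genes compared, 799 (6.44%) share at least 20% of their exon bases with another gene on either strand, and among the genes named here these are Ccn2, Ctsd, Dll1, Fdps, Fen1, Hoxa3, Hoxb3, Igf2, Itgam, Lats2, Nrarp, Rpl24, Tagln, Tbx18 and Timp3.

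**Figure D1:**
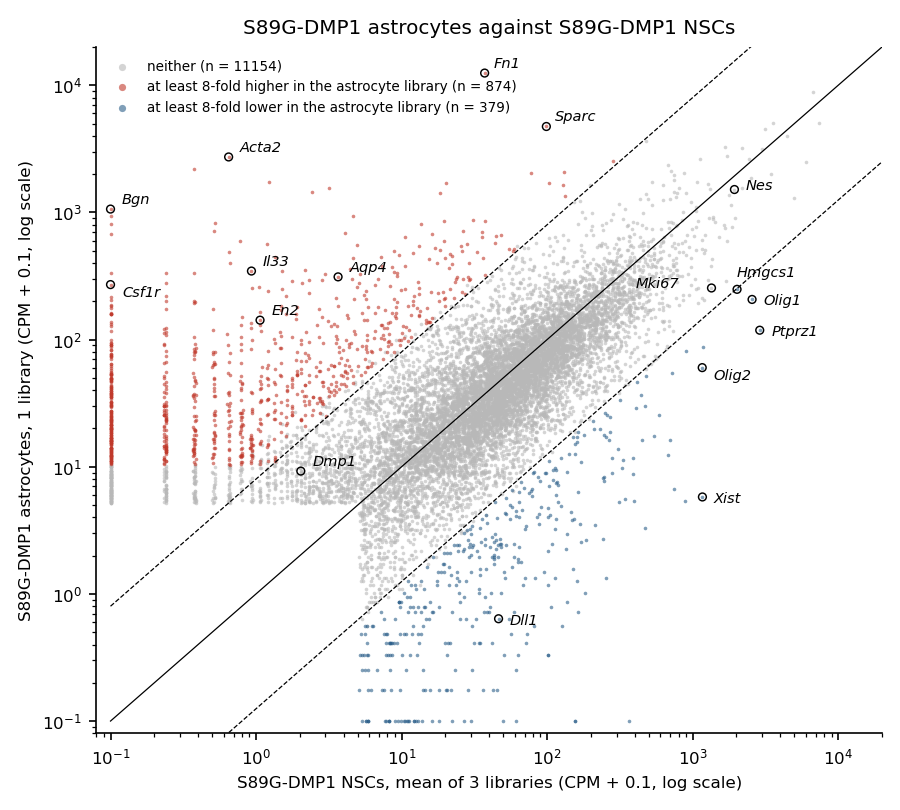
Level of each of the 12407 genes in the S89G-DMP1 astrocyte library (vertical axis) against the mean of the 3 S89G-DMP1 NSC libraries (horizontal axis), in CPM plus 0.1 on log scales, with the line of equality solid and 8-fold lines dashed. The 874 genes in red and 379 in blue passed 8-fold against every NSC library, and Fn1 and Acta2 stand far above the line while Ptprz1, Olig1 and Xist stand below it.

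Genes that mark mature astrocytes were split. Of 18 counted, 2 were called higher and 0 lower, and the median log2 ratio was -0.05, which turned to 0.16 by TMM, to 0.13 by DESeq2 size factors and to 0.51 in the authors' FPKM and TPM values with a pseudocount of 1. The called genes were Aqp4, the water channel of end feet, and Gfap, the intermediate filament by which astrocytes are usually recognized. Aqp4 had 311 CPM in the astrocyte library and 4.61, 1.28 and 4.79 CPM in the NSC libraries, 87.4-fold higher than the NSC mean. Gfap had 69.2 CPM in the astrocyte library and 2.52, 0.852 and 2 CPM in the NSC libraries. Both stood above all 3 NSC libraries, Gfap with 901 astrocyte reads against 6, 2 and 5. The other markers fell on both sides, within 8-fold. The glutamate transporter genes Slc1a3 and Slc1a2 were 298 against 1043 ± 23.6 CPM and 47.7 against 169 ± 8.39 CPM, and Aldh1l1, an enzyme of folate metabolism used as a marker of all astrocytes, was 138 against 627 ± 2.32 CPM. In the other direction, Glul, the glutamine synthetase gene, was 285 against 142 ± 4.15 CPM, and Gja1, which encodes connexin 43, 147 against 46.1 ± 7.14 CPM. Sox9, a transcription factor of glia and NSCs, was 139.8 against 218 ± 10.9 CPM. The connexin gene Gjb6 had no read in any of the 4 libraries, and S100b, a calcium-binding protein gene of mature astrocytes, was 2.31 against 8.31 ± 0.978 CPM.

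Of 16 neural stem and progenitor markers, 0 were called higher and 5 lower, with a median log2 ratio of -1.66 beside -0.09 for all genes. Among these were Insm1, a transcription factor of committed progenitors, Sox3, and the Notch ligand genes Dll1 and Dll3. Insm1 had 0.461 CPM in the astrocyte library and 11.3, 15.8 and 8.79 CPM in the NSC libraries. Dll1 had 0.538 CPM in the astrocyte library and 49.5, 49.4 and 39.9 CPM in the NSC libraries, and Dll3 had 1 read in the astrocyte library and 36, 37 and 30 reads in the NSC libraries. Markers of the stem cell state itself were not called. Sox2 was 208 against 343 ± 26.3 CPM, Nes, the intermediate filament nestin, 1514 against 1937 ± 10.8 CPM, and the RNA-binding protein gene Msi1 89.1 against 89.6 ± 3.69 CPM. Pax6 was 79.8 against 32 ± 6.31 CPM and Sox1 50.3 against 52 ± 3.85 CPM. Fabp7, the brain lipid-binding protein of radial glia, and Egfr, the EGF receptor, were 380.4 against 1332 ± 58.1 CPM and 172 against 625 ± 9.54 CPM, below the 8-fold limit. The 13 Sox family genes counted had 0 higher and 1 lower, Sox3, and a median of -1.19.

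The S89G-DMP1 NSCs had high levels of the oligodendrocyte lineage factors Olig1 and Olig2, which dividing neurosphere cells are known to express. Of 11 genes of this lineage, 0 were higher and 5 lower in astrocytes, with a median log2 ratio of -1.46. Olig1 had 207 CPM in the astrocyte library and 2602, 2612 and 2466 CPM in the NSC libraries, and Olig2 had 60.1 CPM in the astrocyte library and 1183, 1156 and 1151 CPM in the NSC libraries. Every NSC library was above the astrocyte library, 12.4-fold and 19.4-fold on average. The deposited TPM table lists Olig1, Sox3 and the frizzled gene Fzd9 at 0 in all 3 S89G-DMP1 NSC libraries, although their counts are well above 0, so the TPM values reverse these 3 ratios. Sox2 is another well counted gene that the TPM values list at 0, so its level here rests on the counts. The call of Olig2 was lost in the FPKM and TPM values, where its log2 ratio was -1.64. Nkx2-2, a further lineage factor, was 3.53 against 38.3 ± 6.32 CPM. Ugt8a, which makes the myelin lipid galactosylceramide, had 3 reads against 18, 18 and 24, and Lhfpl3 was 1.08 against 101 ± 4.07 CPM. The progenitor receptor Pdgfra was 7.68 against 8.71 ± 1.23 CPM and the myelin gene Mbp was 9.61 against 1.11 ± 1.07 CPM, neither of them called. Among 13 neuroblast and neuron markers, 1 was called higher and 5 lower, beside 7.04% and 3.05% of all genes, and the median was -2.45. Gap43, a growth cone protein, was 12.3 against 674 ± 24.6 CPM, and the RNA-binding proteins Elavl3 and Elavl4 were 2.38 against 47.8 ± 2.22 CPM and 0.538 against 54.9 ± 3.77 CPM. Gad1, which makes GABA, was 0.845 against 26.8 ± 1.42 CPM. The exception was Stmn2, the microtubule regulator stathmin 2, with 1195 reads in the astrocyte library and 0, 0 and 1 in the NSC libraries.

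**Figure D2:**
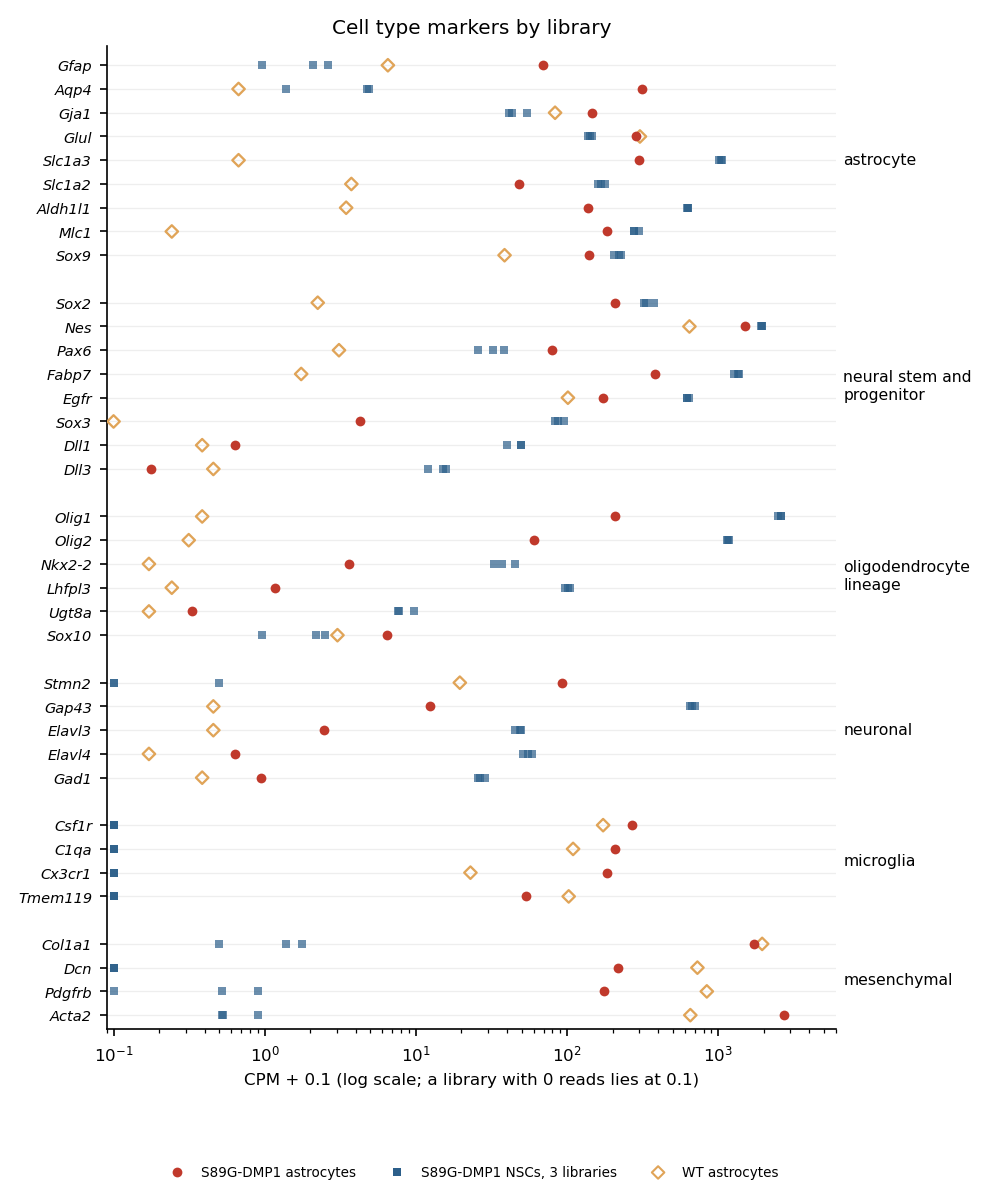
CPM plus 0.1 (horizontal axis, log scale) of marker genes in the S89G-DMP1 astrocyte library (red circles), each S89G-DMP1 NSC library (blue squares) and the WT astrocyte library (open diamonds). Microglial and mesenchymal genes lie far above the NSC libraries in the astrocyte library, Olig1 and Olig2 lie at over 1000 CPM in the NSCs, and Sox2 and Nes are close in the S89G-DMP1 groups.

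Markers of microglia and macrophages were present in the astrocyte library and nearly absent from the neurospheres. Of 14 microglia and macrophage markers, 13 were called higher, and their summed level was 1671 CPM in the astrocyte library against 0.419, 1.28 and 0 CPM in the NSC libraries. All 14 had at most 3 reads in every NSC library and were counted only through the astrocyte library. Csf1r, the receptor that keeps microglia alive, was at 271 CPM, the complement gene C1qa at 207 CPM and the fractalkine receptor gene Cx3cr1 at 182 CPM, with no read of them in any NSC library. The defining microglial genes Tmem119 and P2ry12 were at 53.7 and 8.3 CPM. Lyz2, the lysozyme of macrophages, was at 932 CPM with no NSC read. The share of microglial cells in the culture was not measured, and in such bulk samples fewer cells of a type and less RNA per cell cannot be told apart.

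Of 14 fibroblast markers, 10 were higher and 0 lower, with a median log2 ratio of 6.01. The summed level of the list was 3112 CPM in astrocytes and 459, 437 and 437 CPM in the NSC libraries. Col1a1, the main chain of collagen I, was 1729 against 1.12 ± 0.654 CPM, and Dcn, the proteoglycan decorin, 217 CPM with no NSC read. Pdgfra, which stands in this list as well as in that of oligodendrocyte progenitors, was not called, and Fbln2, a fibulin gene, was 134 against 336 ± 8.64 CPM. Among 7 mural cell markers counted, 5 were higher, namely Acta2, Tagln, Pdgfrb, Cnn1 and Anpep. The genes that define pericytes most closely were at or near 0, since Kcnj8 and Higd1b had no read in the astrocyte library, Rgs5 had 39 reads and Vtn 12. Of 14 endothelial markers, 4 reached 5 CPM in either group and 3 of these, Slco1a4, Kdr and Flt1, were called higher. The summed level of this list was 161 CPM in the astrocyte library against 23.9, 20.03 and 17.6 CPM, but the defining members Cldn5 and Tie1 had no astrocyte read, Pecam1 had 7 and Cdh5 23. Of 8 meningeal transcription factor and retinoid genes, 6 were higher, among them Twist1 (44.3 CPM) and Tbx18 (16.1 CPM, none in the NSCs), although Foxc2, Foxd1 and Aldh1a2 lay under 5 CPM. Foxj1, the factor that drives motile cilia in ependymal cells, was 235 against 19 ± 2.56 CPM, while the other ependymal and choroid plexus genes were near 0 apart from Rsph1 at 8.76 CPM. The part of these other cell types in the genes described next was not tested.

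Many of the higher genes encode extracellular matrix. Of 20 basement membrane genes, 14 were called higher and 0 lower, with a median log2 ratio of 4.27, and 19 of 20 had a ratio above 0. Among the laminin chains, Lama2 was 171 against 1.39 ± 0.515 CPM, Lamb2 592 against 19.5 ± 4.28 CPM, Lama4 138 against 15 ± 1.2 CPM and Lamb1 319.7 against 37.2 ± 3.86 CPM, all called. Lamc1 (668 against 205 ± 2.53 CPM) and Lama5 (564 against 250.5 ± 11 CPM) did not reach 8-fold, and Lama1 was 1.54 against 5.39 ± 1.53 CPM. The collagen IV chains Col4a1 and Col4a2 were 850.01 against 37.4 ± 3.99 CPM and 382 against 10.5 ± 3.16 CPM, and Col4a5 and Col4a6 were called as well. The nidogens, which link laminin to collagen IV, were 439.5 against 4.56 ± 0.821 CPM for Nid1 and 269 against 6.51 ± 0.844 CPM for Nid2. Hspg2, which encodes perlecan, was 2052 against 77.1 ± 10.9 CPM, and Sparc, a collagen-binding glycoprotein, 4741 against 98.7 ± 9.42 CPM. Agrn, the heparan sulfate proteoglycan agrin, was 418 against 407 ± 36 CPM, close between the groups.

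Of 16 fibrillar and fibril-associated collagens, 9 were higher and 1 lower. Besides Col1a1, the collagen I gene Col1a2 (94.1 CPM) and the collagen III gene Col3a1 (219 CPM) were called. The collagen V genes Col5a1 and Col5a2 were 394 against 22.2 ± 4.76 CPM and 454 against 22 ± 1.76 CPM, and Col12a1 was 702 against 35.8 ± 5.42 CPM. Col9a3, a cartilage-type collagen chain, was the lower member at 2.31 against 24.7 ± 3.48 CPM, and its call was lost by TMM and by DESeq2 size factors. Among 19 fibronectin, matricellular and elastic fiber genes, 12 were higher and 0 lower. Fn1, fibronectin, had 12475 CPM in the astrocyte library and 41.9, 37.1 and 32.3 CPM in the NSC libraries, 336-fold higher than the NSC mean, and took more astrocyte reads than any other called gene. The thrombospondin genes Thbs1 and Thbs2 were 1556 against 3.06 ± 1.04 CPM and 826 against 0.419 ± 0.726 CPM. Lox and Loxl2, which crosslink collagen and elastin, were 276 against 0.142 ± 0.246 CPM and 277 against 1.96 ± 1.7 CPM, and Fbln5, an elastic fiber protein, 692 against 4 ± 0.956 CPM. Tnc, the tenascin of the stem cell niche, differed little at 3179 against 2994 ± 121 CPM, and the other neural tenascin, Tnr, was 8.38 against 43 ± 3.32 CPM.

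Of 21 proteoglycan genes listed, 13 were counted, and these divided by family. All 6 small leucine-rich proteoglycan genes counted, Bgn, Prelp, Dcn, Fmod, Ogn and Omd, were called higher, and 5 of them had no NSC read. A gene without an NSC read was counted only through the astrocyte library, so the filter fixed these 5 on the higher side. The neural chondroitin sulfate proteoglycan genes went the other way, with Bcan (brevican, 54.6 against 718 ± 53.6 CPM), Cspg5 (neuroglycan C, 18.8 against 272 ± 14 CPM) and Ptprz1 (a receptor phosphatase that also gives phosphacan) called lower. Ptprz1 had 118 CPM in the astrocyte library and 3008, 2813 and 2848 CPM in the NSC libraries, 24.4-fold lower in astrocytes. Ncan (neurocan) and Cspg4 (NG2) were 433 against 1352 ± 71.3 CPM and 42.6 against 117 ± 12.5 CPM, and Vcan, versican, was 668 against 129 ± 5.08 CPM, none of them called. Of 22 matrix proteases and inhibitors, 10 were higher and 1 lower. The inhibitors Timp2 and Timp3 were 1714 against 103 ± 6.18 CPM and 811 against 13.5 ± 2.86 CPM. The proteases Mmp2 and Mmp14 were 99.3 against 0.845 ± 0.732 CPM and 256 against 13 ± 1.59 CPM, whereas the membrane protease Mmp15 was 87 against 1169 ± 88.7 CPM. Of 19 integrin subunits, 6 were higher and 0 lower. Itga3, a laminin receptor subunit, was 566 against 1.1 ± 0.434 CPM, Itga1, a collagen receptor subunit, 142 against 5.39 ± 0.699 CPM and Itgb5 299.99 against 23.7 ± 4.13 CPM. The other 3 called, Itgam, Itgb2 and Itgal, are subunits of leukocytes. Itgb1, the common partner of most subunits, was 1798 against 749 ± 50.2 CPM, Itga6 229 against 240.2 ± 8.29 CPM and Itgb8 272 against 278 ± 16.3 CPM.

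Of 28 contractile and focal adhesion genes, 12 were called higher and 0 lower, 25 of 28 had a ratio above 0, and the median log2 ratio was 2.90. Tagln, which encodes the actin-binding protein SM22, had 1439 CPM in the astrocyte library and 2.52, 1.7 and 2.8 CPM in the NSC libraries. Myl9, the regulatory light chain of smooth muscle myosin, was 296 against 2.22 ± 0.299 CPM, the tropomyosin gene Tpm1 1341 against 132 ± 4.58 CPM and the actin crosslinker Actn1 857 against 19.5 ± 2.4 CPM. The focal adhesion adaptors Pxn, Zyx and Tln1 differed less, at 141 against 116 ± 11.5 CPM, 231 against 152 ± 7.26 CPM and 977 against 284 ± 9.999 CPM, and Ptk2, which encodes focal adhesion kinase, was 88.2 against 218 ± 8.45 CPM. Of 19 SRF and YAP target genes, 14 were higher and 0 lower, all 19 had a ratio above 0 and the median was 4.46. The matricellular genes Ccn1 and Ccn2, classical YAP targets, were 939.7 against 4.55 ± 0.558 CPM and 489.9 against 0.557 ± 0.256 CPM. Axl, a receptor tyrosine kinase, was 445 against 7.08 ± 1.47 CPM, and the YAP regulators Amotl2 and Lats2 were 436 against 19.9 ± 5.58 CPM and 292 against 28.9 ± 6.22 CPM. Of the immediate early genes, Egr1, Fos and Srf itself were 400.3 against 282 ± 12.5 CPM, 78.9 against 23.7 ± 3.24 CPM and 100.2 against 54.2 ± 4.04 CPM, within 8-fold.

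Since many SRF and YAP target genes were called together, the 250 bases before their RefSeq start sites were searched on both strands, with motifs chosen after the values were seen. The letters GGAATG, which the YAP partners of the TEAD family are known to bind, stood in 9 of the 15 windows found for this list (60%) and in 8 of 25 windows of the contractile genes, against 12.6% of the 27025 windows of all genes. The CArG box, the known site of SRF, was searched as CCWWWWWWGG, with W for A or T and no mismatch. In this form it stood in 2 of 15 and in 4 of 25 windows, against 1.4% of all. Near matches were not counted, such as ccctatatgg and ccttgtttgg in the Acta2 window below, each a single letter off. The lists share Acta2, Tagln, Cnn1 and Myl9, and a match of letters is a description, not a binding site. The first list was made of genes already known as SRF and YAP targets. More of these letters than in all genes can follow from that choice alone and is no support for the calls. The windows of 3 called genes are shown on the gene's own strand, 5′ to 3′, from build GRCm38.p6, with the matched letters in capitals: GGAATG or its reverse complement for Acta2 (chr19:34255374-34255623, minus strand) and Ccn1 (chr3:145649986-145650235, minus strand), and the CArG box for Myl9 (chr2:156775214-156775463, plus strand).
Acta2: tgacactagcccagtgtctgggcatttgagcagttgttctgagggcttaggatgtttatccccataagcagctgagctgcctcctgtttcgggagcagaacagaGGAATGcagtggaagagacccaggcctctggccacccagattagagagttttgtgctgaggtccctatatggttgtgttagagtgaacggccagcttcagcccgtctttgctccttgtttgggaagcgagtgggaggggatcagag
Ccn1: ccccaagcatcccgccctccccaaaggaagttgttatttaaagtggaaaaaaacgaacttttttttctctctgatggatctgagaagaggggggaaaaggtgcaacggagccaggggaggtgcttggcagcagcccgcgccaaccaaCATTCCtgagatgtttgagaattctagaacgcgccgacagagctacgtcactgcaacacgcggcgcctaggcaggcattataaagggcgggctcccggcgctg
Myl9: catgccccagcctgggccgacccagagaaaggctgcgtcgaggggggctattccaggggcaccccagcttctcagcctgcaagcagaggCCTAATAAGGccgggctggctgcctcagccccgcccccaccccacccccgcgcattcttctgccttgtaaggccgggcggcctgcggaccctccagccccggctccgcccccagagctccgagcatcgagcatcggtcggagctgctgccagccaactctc
The matches begin 146, 103 and 161 bases before the start site.

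Among the signaling pathways, TGF-beta genes carry matrix induction and BMP genes drive astrocyte differentiation. Of 21 TGF-beta genes, 10 were higher and 0 lower, with a median log2 ratio of 2.74. The ligand genes Tgfb1 and Tgfb3 were called, Tgfb1 at 54.2 CPM with no NSC read and Tgfb3 at 173 against 2.63 ± 0.878 CPM, while Tgfb2 was 46.4 against 36.1 ± 3.06 CPM. The receptor Tgfbr2 was 250.2 against 10.4 ± 1.4 CPM and its partner Tgfbr1 94.7 against 62 ± 6.4 CPM. The inhibitor Smad7, itself a target of the pathway, was 46 against 3.46 ± 0.333 CPM, and Tgfbi, a matrix protein induced by TGF-beta, 69.9 against 0.275 ± 0.239 CPM. The signal carriers Smad2 and Smad4 were 48.3 against 51.6 ± 6.59 CPM and 85 against 102 ± 7.26 CPM. Of 19 BMP genes, 9 were higher and 1 lower. The ligand genes Bmp4 and Bmp6 were at 43.9 and 90.6 CPM with no NSC read, but Bmp7 was 7.45 against 116 ± 8.26 CPM, the 1 member called lower. The BMP target genes Id1 and Id4 were 163 against 8.46 ± 1.87 CPM and 65.9 against 0.685 ± 0.637 CPM, and the antagonist genes Nog and Fst, 24.7 against 1.51 ± 0.937 CPM and 62.2 against 3.33 ± 1.72 CPM, were called as well.

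The mitogen pathways of the neurosphere medium showed no common direction. For 23 FGF and EGF receptors and ERK feedback genes, 3 were higher and 0 lower, and the median log2 ratio of -0.11 turned to 0.10 by TMM and 0.07 by DESeq2 size factors. The 3 were the receptor genes Fgfr2 (179.7 against 5.8 ± 1.65 CPM) and Erbb2 (62 against 6.09 ± 0.688 CPM) and the ligand gene Ereg (22.5 against 0.552 ± 0.643 CPM). The feedback inhibitors Spry2 and Spry4, which rise with ERK activity, were 66 against 291 ± 23.2 CPM and 62 against 370.3 ± 12.3 CPM, below the limit. For 13 Notch genes, 0 were higher and 3 lower, Dll1, Dll3 and the feedback gene Nrarp, and the median of -0.16 turned positive by TMM (0.05), by DESeq2 size factors (0.02) and in FPKM and TPM values with a pseudocount of 1 (0.57). The receptors Notch1 and Notch2 were 279.5 against 311 ± 32.2 CPM and 274 against 49.6 ± 3.98 CPM, and Hes1, a target, 66.5 against 25.2 ± 4.5 CPM.

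Of 25 Wnt genes, 8 were higher and 4 lower. Secreted antagonist genes were prominent among the higher ones, with Sfrp1 at 330.3 against 5.08 ± 2.66 CPM, Dkk3 at 202 against 0.275 ± 0.239 CPM and Wif1 at 86.9 CPM without an NSC read. The lower ones were the ligands Wnt7a (3.77 against 55.3 ± 3.72 CPM) and Wnt7b (0.615 against 59.3 ± 8.57 CPM), the receptor Fzd9 (0.922 against 48.1 ± 4.31 CPM) and the antagonist Sfrp2 (0.231 against 11.3 ± 2.44 CPM). Axin2, a target of the canonical pathway, was 49.5 against 65.4 ± 3.98 CPM. Of 10 IGF genes, 5 were higher and 0 lower, namely Igf1, Igf2, the imprinted RNA H19, Igfbp5 and Igfbp7. Igf1 was 159 against 1.79 ± 0.446 CPM and Igfbp5, a secreted IGF-binding protein, 1693 against 20.05 ± 0.448 CPM.

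**Figure D3:**
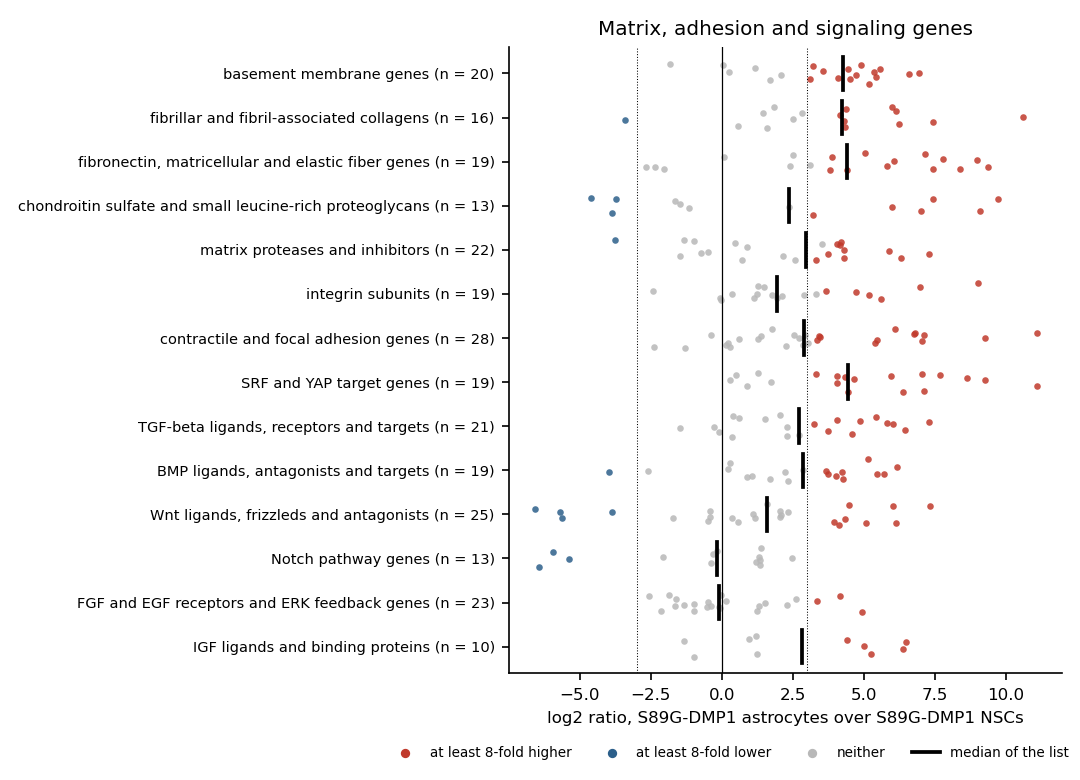
Log2 ratio of S89G-DMP1 astrocytes to S89G-DMP1 NSCs (horizontal axis) for each counted gene of 14 lists, with the list median as a black bar, 8-fold marked by dotted lines, and groups of 3 or fewer reads per library set to 3 reads. Red and blue points passed 8-fold against every NSC library. Basement membrane, collagen and SRF and YAP lists have medians above 4, while Notch and FGF or EGF lists have medians near 0.

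Genes that record position along the neural axis differed. Of 13 midbrain and isthmus genes counted, 10 were called higher and 1 lower, with a median log2 ratio of 5.16 and a summed level of 668 CPM in the astrocyte library against 14.7, 16.6 and 12.8 CPM in the NSC libraries. Of the 22 genes listed, 18 had at most 3 reads in every NSC library. Most of the 13 were thus counted only through the astrocyte library, which set their direction. The engrailed genes En1 and En2, which pattern the midbrain and isthmus, stood apart. En1 had 65 CPM in the astrocyte library and 0, 0 and 0.399 CPM in the NSC libraries. En2 had 142 CPM in the astrocyte library and 0.419, 1.28 and 1.2 CPM in the NSC libraries. Cnpy1, an FGF signaling gene of the isthmus, was 92.2 against 0.282 ± 0.244 CPM. Lmx1b and Pax3 were at 59.4 and 47.3 CPM with no NSC read, and the Iroquois genes Irx1, Irx2, Irx3 and Irx5 were at 42, 79.8, 50.02 and 44.6 CPM against at most 1.66 CPM as the NSC mean. Pax5 and Pax8, at 9.22 and 9.14 CPM without an NSC read, were not called because 3 NSC reads already correspond to over 1 CPM. Barhl2, with 1 read in the astrocyte library and 23, 20 and 11 in the NSC libraries, was the lower member. Otx2, which marks forebrain and midbrain, was 2 against 1.52 ± 0.952 CPM.

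Hox genes, which pattern the hindbrain and spinal cord, had 88.4 CPM in sum in the astrocyte library, and only Hoxa9 among 39 had a read in any NSC library. The 5 counted were the anterior members Hoxa2, Hoxa3, Hoxb3, Hoxb4 and Hoxa5, at 13.9, 16, 11.8, 9.91 and 8.38 CPM, of which the first 3 were called. All 39 had at most 3 reads in every NSC library, so these 5 were counted only through the astrocyte library. Of 10 forebrain factors counted, 0 were higher and 1 lower, beside 7.04% and 3.05% of all genes. A ratio below 0 was found for 7 of the 10, against 53.3% of all genes. Their median log2 ratio was -1.63, between -1.83 and -0.65 over all settings. Emx2, a cortical factor, was 1.38 against 29.98 ± 7.29 CPM. Lhx2 and Otx1 were 15.5 against 61.3 ± 7.88 CPM and 5.99 against 26 ± 2.7 CPM, while Dlx2 (10.5 against 3.35 ± 1.52 CPM) did not reach 8-fold in the other direction. The astrocyte label gives cortex as the tissue. In the WT astrocyte library, also labelled cortex, En1, En2, Cnpy1, Lmx1b and Pax3 were at 2.64, 0.143, 0, 1.36 and 1.14 CPM. Of the 13 midbrain and isthmus genes, which the filter picked in the S89G-DMP1 libraries, 0 passed 8-fold higher than the WT NSCs. The 22 genes listed still summed to 107 CPM in WT astrocytes against 17.2 CPM in WT NSCs. The Hox genes summed to 45.4 CPM in WT astrocytes against 0.133 CPM in WT NSCs. With 1 astrocyte library per genotype, genotype and dissection cannot be told apart.

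**Figure D4:**
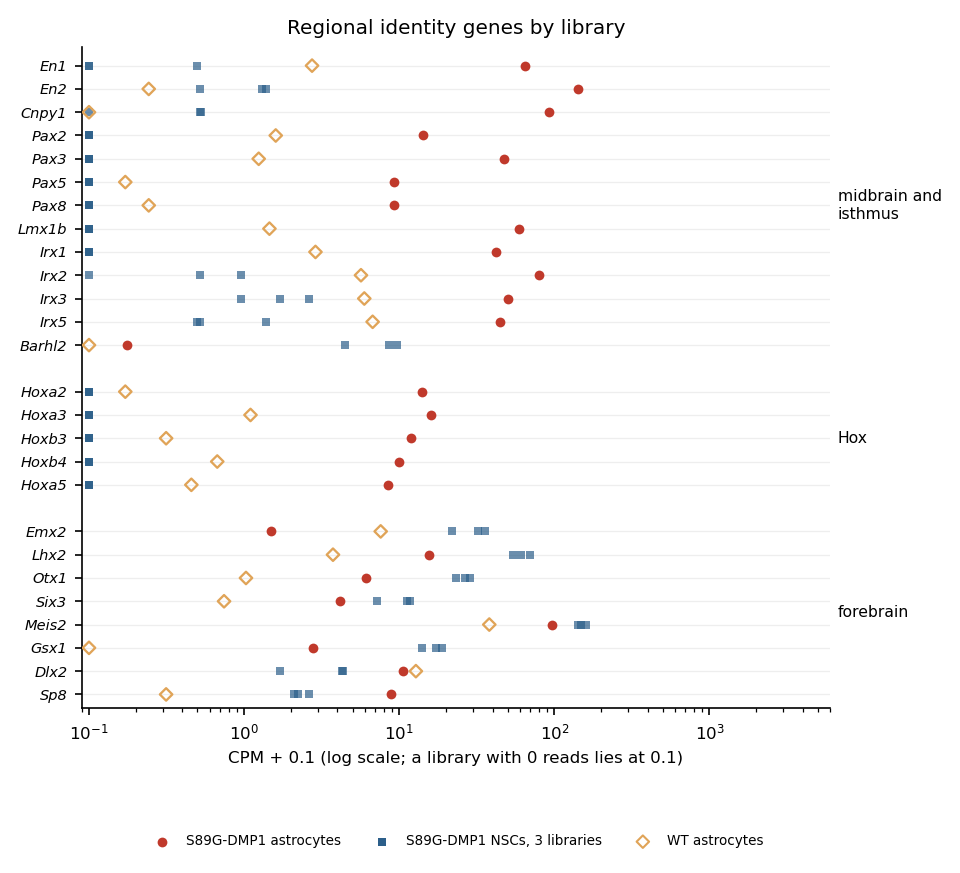
CPM plus 0.1 (horizontal axis, log scale) of midbrain and isthmus, Hox and forebrain genes in the S89G-DMP1 astrocyte library (red circles), each S89G-DMP1 NSC library (blue squares) and the WT astrocyte library (open diamonds). The red circles of En1, En2, Cnpy1 and Lmx1b lie between 59.4 and 142 CPM, where the NSC squares lie below 1.5 CPM.

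Genes of cell division had ratios below 0, nearly all within 8-fold. Of 30 cell cycle genes, 0 were called in either direction, but all 30 had a ratio below 0 and 28 were at least 2-fold lower than the NSC mean, with a median log2 ratio of -2.0045. Over all genes 53.3% had a ratio below 0 and 20.3% were as much as 2-fold lower. Among the proteasome and RNA polymerase II subunits 41 of 43 had a ratio below 0 and 9 were 2-fold lower, so the sign alone does not set the cell cycle genes apart from these. Over all settings tried this median lay between -2.05 and -1.61. Mki67, the gene of the proliferation antigen Ki-67, had 254 CPM in the astrocyte library and 1382, 1269 and 1391 CPM in the NSC libraries. Top2a, the topoisomerase of dividing cells, was 204 against 863 ± 53.9 CPM and Ccnb1, the mitotic cyclin B1, 42.1 against 252 ± 6.68 CPM. All 29 DNA replication genes had ratios below 0, with a median log2 ratio of -2.23. Mcm2, a subunit of the replicative helicase, was 59.2 against 308 ± 8.84 CPM, Pcna, the sliding clamp, 91.2 against 346 ± 11.6 CPM and Rrm2, which makes deoxynucleotides, 74.2 against 465 ± 3.12 CPM. The 1 called gene, Fen1, shares 84.2% of its exon bases with another gene. The 12 CDK inhibitors and D cyclins had 0 calls and a median of 0.18, which was -0.27 in FPKM and TPM values with a pseudocount of 1. Cdkn1a, the inhibitor p21, was 588 against 496 ± 8.03 CPM, Ccnd1 1546 against 2197 ± 7.96 CPM and Ccnd2 3193 against 2184 ± 32.8 CPM.

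Cholesterol is made in cells through the mevalonate pathway, whose genes the SREBP factors turn on when sterols run low. Of 26 sterol synthesis and SREBP target genes, 0 were higher and 5 lower, 25 had a ratio below 0, 23 were at least 2-fold lower than the NSC mean and the median was -2.34, between -2.37 and -2.07 over all settings. Their summed level was 3524 CPM in the astrocyte library and 15968, 15763 and 15613 CPM in the NSC libraries. The 5 called enzymes were Hmgcs1, Mvd, Fdps, Lss and Dhcr7, and the call of Hmgcs1, at 8.13-fold, was lost by TMM and by DESeq2 size factors. In the FPKM and TPM values with a pseudocount of 1 the calls of Hmgcs1, Lss and Dhcr7 were lost, with log2 ratios of -3.32, -2.86 and -3.05. Hmgcs1, which makes HMG-CoA, had 248 CPM in the astrocyte library and 2031, 2008 and 2017 CPM in the NSC libraries, and Lss, which closes the sterol ring, 28.8 CPM in the astrocyte library and 407, 412 and 401 CPM in the NSC libraries. Insig1, a sterol sensor gene, was 70.7 against 563 ± 32.1 CPM. Scd2 and Fasn, which make fatty acids, were 1295 against 4977 ± 113 CPM and 287 against 1700.3 ± 78.4 CPM. Serum supplies lipoproteins to the astrocytes, and its part in these values was not tested.

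The letters TCACCCCAC, the core of the site by which SREBP factors are known to act, were searched in the same way and stood before Hmgcs1 and no other of the 17 sterol genes with a window, against 0.466% of all genes. The letters CCAAT, bound by NF-Y, stood in 15 of these 17 windows, in 17 of 23 of the cell cycle genes and in 15 of 24 of the DNA replication genes, against 34.5% of all windows. The window of Hmgcs1 (chr13:119690101-119690350, plus strand, GRCm38.p6, RefSeq) is shown 5′ to 3′ with the SREBP letters in capitals, 137 bases before the start site.
Hmgcs1: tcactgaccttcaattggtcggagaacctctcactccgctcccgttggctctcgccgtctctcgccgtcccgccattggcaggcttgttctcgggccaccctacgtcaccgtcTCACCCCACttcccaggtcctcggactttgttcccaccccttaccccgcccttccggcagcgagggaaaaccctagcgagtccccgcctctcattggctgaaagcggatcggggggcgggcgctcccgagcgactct

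Glycolysis genes, 20 in all, had 0 calls and a median of 0.43. Gapdh was 1203 against 152 ± 6.88 CPM and Pgk1 320.3 against 87.7 ± 9.58 CPM, while Pkm was 907 against 1943 ± 77 CPM. Gapdh has many processed pseudogenes, so its value is uncertain. Of 24 lysosomal genes, 4 were higher and 0 lower, beside 7.04% and 3.05% of all genes. A ratio above 0 was found for 23, and the median was 1.60. Among the 4 were the protease genes Ctss and Ctsd and the macrophage protein gene Cd68. Ctss and Cd68 are also abundant in macrophages, and were at 137 and 79.4 CPM. Ctsd was 2549 against 283 ± 11.5 CPM and Ctsb 1236 against 168 ± 8.18 CPM. Cytosolic ribosomal proteins, 74 genes, had a median of -0.60, and although ribosomes hold these proteins in equal numbers, their ratios ran from -4.65 (Rpl24) to 4.78 (Rps27), with 4 called higher and 2 lower. The FPKM and TPM values reverse the ratio of Rps27. Most have many processed pseudogene copies, which separate pipelines can count differently.

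**Figure D5:**
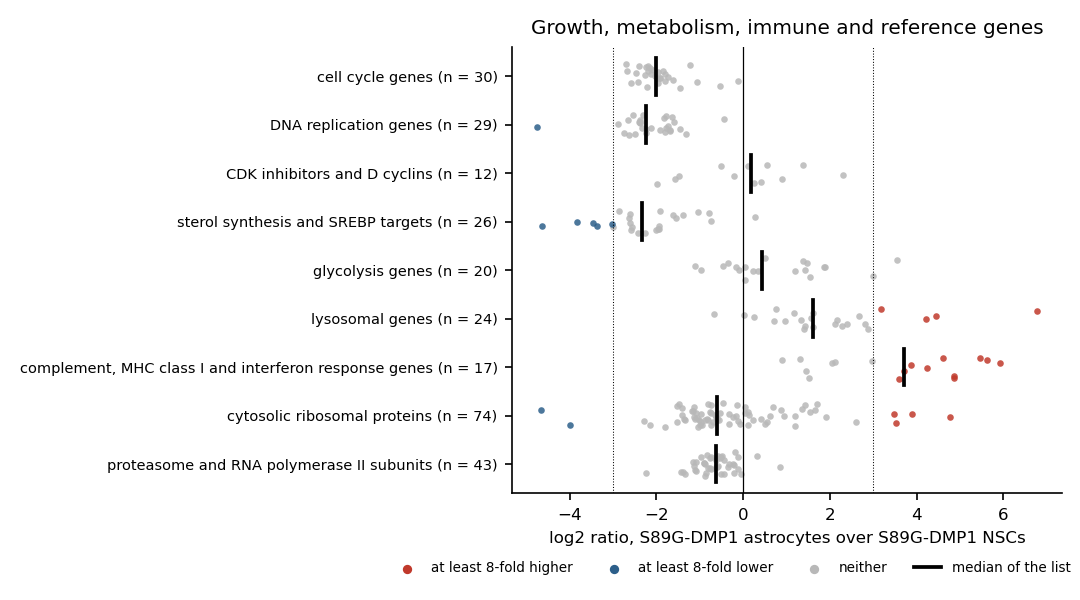
Log2 ratio of S89G-DMP1 astrocytes to S89G-DMP1 NSCs (horizontal axis) for each counted gene of 9 lists, with medians as black bars and 8-fold as dotted lines. Cell cycle and DNA replication genes and 25 of 26 sterol genes lie left of 0, with medians of -2.34 to near -2. The proteasome and RNA polymerase II subunits, complexes that every cell uses, have a median of -0.63.

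Of 17 complement, MHC class I and interferon response genes, 10 were higher, 0 were lower and all 17 had a ratio above 0. Of the 20 listed, 13 had at most 3 reads in every NSC library. Most of the 17 were thus counted only through the astrocyte library, which set their direction. C3, the central complement component, was 75.7 against 0.273 ± 0.237 CPM, and the initiating proteases C1s1 and C1ra were at 61.5 and 23.5 CPM with no NSC read. B2m, the common chain of MHC class I, was 486 against 33 ± 1.41 CPM, and the interferon response gene Ifit3 36.2 against 0.413 ± 0.419 CPM. Ifit3, C1s1 and C1ra have near-identical copies in the genome, so their values are uncertain. Of 7 chemokine and inflammatory genes, 6 were higher. Il33, an alarmin that glia release, had 346 CPM in the astrocyte library and 0.839, 0.852 and 0.799 CPM in the NSC libraries. Vcam1, an adhesion molecule, was 161 against 9.01 ± 1.79 CPM and Ptgs2, the inducible cyclooxygenase, 31.5 against 0.566 ± 0.652 CPM. Ccl2 and Cxcl10 were under 5 CPM in both groups. The microglia markers, summed above, were present on the same side as these genes, and their part in these values was not tested.

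Genes of end feet, barrier and tight junctions, and Dmp1 itself, bear on the blood-brain barrier, the subject of the study. Of 18 such genes, 4 were higher and 0 lower, with a median log2 ratio of 0.80. Besides Aqp4, these included the junction genes F11r (22.1 CPM, no NSC read) and Cldn1 (19.3 against 0.282 ± 0.244 CPM). Dag1, which gives dystroglycan, the laminin receptor of end feet, was 671 against 392.1 ± 10.7 CPM, and the potassium channel Kcnj10 148 against 62.7 ± 2.71 CPM. Tjp1, which encodes ZO1, was 350.4 against 249.6 ± 9.68 CPM. Dmp1 had 119 reads in the astrocyte library, 9.14 CPM with a 95% exact counting interval of 7.58 to 10.9. In the NSC libraries it had 6, 3 and 5 reads, 2.52, 1.28 and 2 CPM, so that the astrocyte library was above all 3 but did not reach 8-fold over each. In the WT astrocyte library Dmp1 had 2 reads, 0.143 CPM. Spp1, which encodes osteopontin, a relative of DMP1 among the acidic phosphoproteins of bone, was 545 against 25.5 ± 3.88 CPM and was called, while Dspp, Ibsp and Mepe had at most 1 read per library.

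Libraries also differed in sex-linked genes. Xist, the RNA that silences an X chromosome in female cells, had 74 reads in the astrocyte library and 2822, 2739 and 2882 in the NSC libraries. The Y-linked genes Ddx3y, Eif2s3y, Kdm5d and Uty were present in both groups, at 98.1 against 24.5 ± 5.85 CPM, 74.8 against 29.99 ± 0.244 CPM, 58.9 against 22.7 ± 2.37 CPM and 40.3 against 11 ± 2 CPM. The NSC libraries thus held Xist and Y-linked reads together. The WT astrocyte library had Xist at 869 CPM and Ddx3y without a read.

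The same rule in the WT libraries, with 12294 genes counted, gave 930 higher (7.56%) and 1041 lower (8.47%) genes, from separate astrocyte and NSC samples. Of the S89G-DMP1 calls, 547 of the 874 higher genes were also higher in WT, 62.6% of the S89G-DMP1 and 58.8% of the WT list. Among the lower genes 292 were shared, 77% of the S89G-DMP1 but 28.1% of the WT list. The median log2 ratios in WT were 3.42 for basement membrane genes, 2.43 for collagens, 2.54 for contractile genes and 5.56 for microglia markers. The proteoglycan list had a median of 2.37 in S89G-DMP1 and -0.23 in WT. Lists of neural identity lay further to the NSC side in WT, with medians of -2.99 for astrocyte markers and -5.40 for stem and progenitor markers. The cell cycle genes did so too, with a median of -4.74. All these WT medians are over the genes counted in S89G-DMP1. Sox2 was at 2.14 CPM in WT astrocytes and Slc1a3 at 0.571 CPM. A group of 4 genes was called higher in S89G-DMP1 and lower in WT, among them Foxj1, the AMPA receptor gene Gria1 and Pitpnm3. With 1 astrocyte library per genotype, none of these differences between genotypes was tested.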

How the data were processed

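RNA was sequenced from 1 S89G-DMP1 astrocyte library and 3 S89G-DMP1 NSC libraries, with the matching WT libraries used only side by side. The authors deposited raw read counts per Ensembl gene for both cell types, FPKM values for the astrocytes and TPM values for the NSCs. The submitters' processing notes name Bowtie2 2.0.6, TopHat2 2.0.9, HISAT2, StringTie, featureCounts and GRCm38, and the astrocyte and NSC tables came from separate pipelines, so small differences are not read. The counter of the astrocyte reads is not given in the sources used here.

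The 40432 genes in both tables were kept (0.0226% of astrocyte and at most 0.327% of NSC reads lay outside them), and each library was scaled to CPM over these genes. Genes with at least 5 CPM in the astrocyte library or as the NSC mean were compared, 12407 in all, of which 12384 had a gene symbol. The calls rest on no test, since there is 1 astrocyte library. A gene was called when the astrocyte library differed at least 8-fold from each NSC library, with 3 reads as the floor of a library. Log2 ratios are of the astrocyte CPM over the NSC mean. Counting intervals are 95% exact binomial intervals of the reads of a gene among all reads of the library. The text names the 10 protein-coding genes with the largest and the 10 with the smallest ratios among the called genes, the 10 called genes with the highest CPM in each direction, the called members of 41 gene lists with the largest ratios or levels, the defining members of each list, and Dmp1. The genes named as called in opposite directions in the genotypes, and the genes under other observations, were chosen after their values were seen. Some genes that the rule picks are not reported here. The members and the gene lists were chosen with earlier results of these data known.

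Python 3.11.15 with numpy 2.4.6, pandas 2.3.3 and scipy 1.17.1 was used, and R 4.3.3 with edgeR 4.0.16 and DESeq2 1.42.0 gave the alternative scalings and a quasi-likelihood test that takes its spread from the NSC libraries. The rule was tested on simulated data. Alternatives were the scaling, the fold, the filter, the floor, thinning of the astrocyte library to the NSC depth, the FPKM and TPM values with a pseudocount of 1 or 0.1, and leaving out each NSC library. Promoter sequences are from RefSeq on GRCm38.p6.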

Additional observations from a re-analysis of the deposited data

Results flagged for a closer look

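For 5 genes named in the text, the S89G-DMP1 astrocyte library was at least 8-fold above every S89G-DMP1 NSC library while the WT astrocyte library lay below every WT NSC library, at least 2-fold below their mean. None of these differences was tested, since each genotype has 1 astrocyte library. Aqp4 had a log2 ratio of 6.45 in S89G-DMP1 and -1.48 in WT. Il33 had 8.12 and -1.64. The other 3 passed 8-fold in both, higher in S89G-DMP1 and lower in WT. Foxj1 had log2 ratios of 3.63 and -5.22, and Gria1 of 3.21 and -6.58. Pitpnm3 had 3.65 and -3.75. In astrocyte reads, S89G-DMP1 against WT, Gria1 had 2753 against 1 and Pitpnm3 409 against 7.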

How the results depend on the processing

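No paired analysis was possible because the astrocyte group has 1 library without a replicate number and the calls come from no test. At 4-fold 1594 genes were higher and 819 lower, and at 16-fold 468 and 232. With a floor of 10 reads 508 were higher and 343 lower, a share of 59.7% higher among the calls instead of 69.8%. TMM gave 984 and 343, DESeq2 size factors 969 and 347, and leaving out 1 NSC library 900 to 928 higher and 386 to 399 lower. Adding edgeR's quasi-likelihood test removed 0 of the 874 and 379 genes, which is no support for them: its spread comes from the NSC libraries alone, and the genes were already chosen for 8-fold. Protein-coding genes alone gave 843 and 330, and, chosen after seeing the data, those with under 20% exon overlap 801 and 305. FPKM and TPM with a pseudocount of 1 gave 863 and 271, of which 679 and 203 were among the main calls, and 28 of 172 named called genes no longer passed 8-fold against every library. Beside those named above, these include Bcan, Mmp15, Insm1, Nkx2-2, Wnt7a, Erbb2, Kdr, Pou3f1 and Prr18, which were also lost with a pseudocount of 0.1, and Foxj1, Fst, Nog, Pitpnm3, Ereg, Sfrp2, Ugt8a, Barhl2 and Col9a3, which were not. A lost call need not mean a small ratio. Bcan, Pou3f1 (-4.71), Prr18 (-5.30), Foxj1, Fst, Nog, Pitpnm3, Sfrp2 and Col9a3 stayed past 8-fold against the NSC mean. The other genes of this group did not, all in FPKM and TPM values with a pseudocount of 1. With these values the log2 ratios of Olig1 (7.43), Fzd9 (0.78), Sox3 (2.20), mt-Atp6 (2.08) and Rps27 (-1.16) reversed, and with a pseudocount of 0.1 they were 10.74, 3.04, 5.21, 5.06 and -1.16. Olig1, Fzd9, Sox3 and mt-Atp6 are listed at 0 in the S89G-DMP1 NSC TPM values, and for Rps27 the cause was not tested. Of the 172, 17 were lost with the floor of 10 reads, among them Hoxa2, Hoxa3 and Hoxb3, 13 with the thinned astrocyte library, among them Lama4 and Lats2, and 0 by leaving out an NSC library. An NSC floor above 1 CPM limits calls of genes low in astrocytes.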

Other observations

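Of 54 processed pseudogenes compared, 3 were called higher and 28 lower in the astrocyte library, beside 7.04% and 3.05% of all genes. The chaperone gene Hsp90aa1 was 16.1 against 448 ± 11.3 CPM in S89G-DMP1 and 622 CPM in the WT astrocyte library, which came from the same pipeline. The mitochondrial leucyl-tRNA synthetase gene Lars2 was 25.4 against 587 ± 99.97 CPM, with 385 CPM in WT astrocytes, and the noncoding gene Gm26917 was 0.768 against 136 ± 34.5 CPM, with 95.5 CPM. The mitochondrially encoded mt-Atp6 was 1.23 against 253 ± 55.8 CPM, with 1.93 CPM in WT astrocytes, and of 12 such genes 0 were called higher and 2 lower. Txn1, the thioredoxin gene, was 80.8 against 899 ± 65.7 CPM, with 76.5 CPM in WT astrocytes.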
